A study of Triticum aestivum with 24 samples.

Results

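RuBisCO, the enzyme that fixes carbon dioxide in the Calvin cycle, and an ATP synthase subunit were followed across stems and flag leaves of 2 near isogenic lines of wheat. The genes were taken by their names in the deposited sheet, which gave 3 different sequences named *rbcS* (source sequences AB042066, AB042069 and KT288199), 1 named *rbcL* (LT576864) and 1 named ATP synthase subunit (GU369976). They are 5 of the 26 genes of the sheet. One of the 26 is actin, to which all values were scaled, which leaves 25 genes to test.

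Leaf and stem RNA was sequenced from spring wheat of the Fortuna background carrying either *Rht-B1a*, the standard height allele, or *Rht-B1b*, the semi-dwarfing allele, which had been backcrossed from Hi-Line. Both lines grew in irrigated field rows near Bozeman, and the tissues were the flag leaf and the stem between the first and second internode at 14 days past anthesis. The 4 groups, stem *Rht-B1a*, stem *Rht-B1b*, leaf *Rht-B1a* and leaf *Rht-B1b*, had 3 tissue samples each. Each line stands for 1 allele in 1 genetic background, and the study describes a replicate both as a composite of plants from a row and as a single leaf and internode. No gene of the sheet was held as a marker of leaf or stem, so the tissue labels were not tested, and the level of a gene does not show which *Rht-B1* allele a sample carried.

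RuBisCO is built from large subunits, which carry the active site and are encoded by *rbcL* in the plastid genome, and small subunits, which are encoded by a family of nuclear *rbcS* genes and imported into the plastid. In leaves, RuBisCO is among the most abundant proteins and holds much of the nitrogen that is later moved to the grain. ATP synthase makes ATP from a proton gradient across a membrane, in chloroplasts and in mitochondria, and the sheet does not say to which of these the listed subunit belongs.

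Values are RPKM, read numbers corrected for the length of the gene and the reads mapped, scaled by the authors so that actin has the same value in every sample, and are therefore levels relative to actin. Depth per sample is unknown. The 3 *rbcS* sequences belong to a family of closely similar copies, and reads that fit more than 1 copy make the value of each copy uncertain. Because each sample is a whole tissue, fewer cells of a type and less RNA per cell cannot be told apart.

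Stems expressed the small subunit genes at a high level in both lines, and all 3 sequences lay higher in *Rht-B1b*. The sequence AB042066 had 82651, 87297 and 87315 RPKM in the 3 *Rht-B1a* stems and 128283, 114003 and 135611 RPKM in the 3 *Rht-B1b* stems. The sequence KT288199 had 42838, 36454 and 46465 RPKM in *Rht-B1a* stems and 76512, 63936 and 83782 RPKM in *Rht-B1b* stems. Neither sequence overlapped between the lines. The sequence AB042069 was much lower, with 4030.2, 6168 and 4276 RPKM in *Rht-B1a* stems and 14973, 7832 and 15739 RPKM in *Rht-B1b* stems. These values did not overlap either, but replicate 2 was the highest of the *Rht-B1a* stems and the lowest of the *Rht-B1b* stems. Of the 25 genes tested, 60.0% lay apart in stems as higher in *Rht-B1b*, so this separation is not particular to *rbcS*.

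The order of the 3 sequences by level was the same in leaves, at levels many times higher. The sequence AB042066 had 1873302, 876126 and 750613 RPKM in *Rht-B1a* leaves and 1610924, 1135055 and 1004889 RPKM in *Rht-B1b* leaves. The sequence KT288199 had 1208597, 653004 and 496381 RPKM in *Rht-B1a* leaves and 1268828, 810505 and 713750 RPKM in *Rht-B1b* leaves. The sequence AB042069 had 501489, 246555 and 178549 RPKM in *Rht-B1a* leaves and 514989, 372725 and 309665 RPKM in *Rht-B1b* leaves. In leaves the lines overlapped for each of the 3 sequences, and replicate 1 was the highest of its line every time. Replicate 1 was also the highest of its line for 23 of 25 genes in *Rht-B1a* leaves and for 19 of 25 genes in *Rht-B1b* leaves. The highest *Rht-B1a* leaf stood 2.50 times above the lowest for AB042066, and 1.59 times after each sample was rescaled to the geometric mean of 20 other genes. What sets replicate 1 apart was not tested.

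Summed over the 3 sequences, *rbcS* reached 132498 ± 4818 RPKM (SD, n = 3) in *Rht-B1a* stems and 213557 ± 25260.2 RPKM (SD, n = 3) in *Rht-B1b* stems. The leaf sums were 2261539 ± 1158065 RPKM (SD, n = 3) in *Rht-B1a* and 2580443 ± 719954 RPKM (SD, n = 3) in *Rht-B1b*. The sum made up 53.4% to 60.5% of the RPKM of all 26 genes in stems and 85.3% to 88.6% in leaves. AB042066 ranked 1 of the 26 genes in each of the 12 samples, KT288199 ranked 2 in leaves and 3 in stems, and AB042069 ranked 3 in leaves and between 4 and 6 in stems.

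The ATP synthase subunit was likewise expressed far more in leaves than in stems. It had 7146, 6563 and 6674 RPKM in *Rht-B1a* stems and 11300.4, 8644 and 11220.4 RPKM in *Rht-B1b* stems. The stems of the lines did not overlap, as for 60.0% of the 25 genes tested. In leaves it had 172597, 96229 and 86327 RPKM in *Rht-B1a* and 148036, 118654 and 116325 RPKM in *Rht-B1b*, so that the *Rht-B1b* leaves lay within the range of the *Rht-B1a* leaves. It ranked 4 or 5 of 26 genes in leaves and 5 or 6 in stems.

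The large subunit gene *rbcL* stood at the other end of the sheet and was the lowest of the 26 genes in each sample. It had 0.130, 0.117 and 0.141 RPKM in *Rht-B1a* stems and 0.183, 0.183 and 0.222 RPKM in *Rht-B1b* stems. In leaves it had 1.69, 0.966 and 1.36 RPKM in *Rht-B1a* and 1.79, 1.19 and 1.08 RPKM in *Rht-B1b*. The stems of the lines did not overlap, as for 60.0% of the 25 genes tested, and the leaves did. Each leaf lay above each stem, as for 40.0% of the 25 genes. Per sample the summed *rbcS* signal was between 979123 and 2119094 times that of *rbcL*. Plastid transcripts are mostly not polyadenylated, and the library kit named in the labels selects polyadenylated RNA. The part of that selection in the low *rbcL* values was not tested, and they cannot be read as a ratio of subunits in the tissue.

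**Figure D1:**
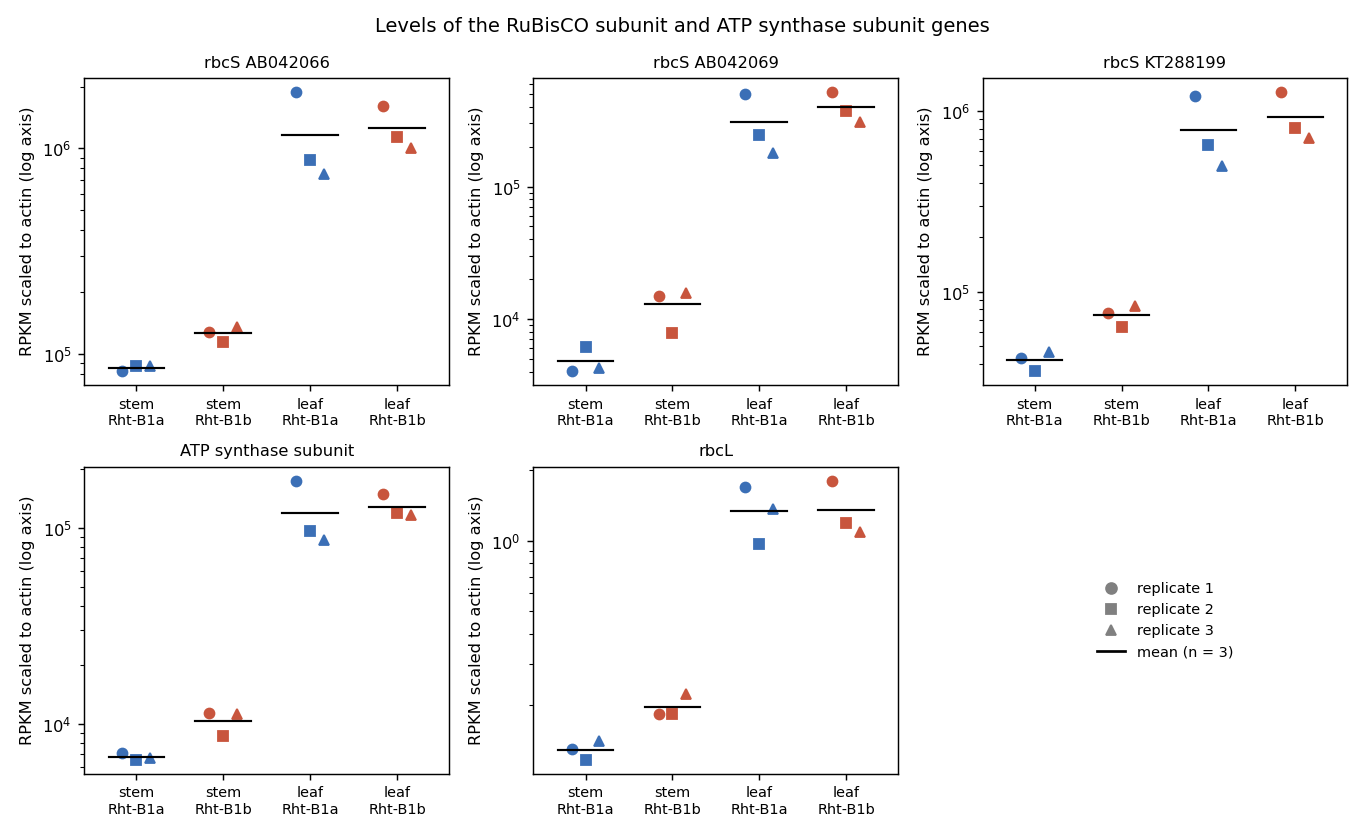
RPKM scaled to actin (log axis, a different range in each panel) of the 3 rbcS sequences, the ATP synthase subunit and rbcL in the 12 tissue samples, with points for replicates and lines for the mean of 3. Each leaf lies above each stem in all 5 panels, Rht-B1b stems lie above Rht-B1a stems, and the leaves of the lines overlap. Of the 25 genes tested, 40.0% have each leaf above each stem and 60.0% have Rht-B1b stems above Rht-B1a stems.

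Leaves and stems were first compared over both lines, to give the tissue pattern against which the lines are read. All 5 genes were higher in leaves, on the log2(RPKM + 1) scale used for all fold changes here. The largest difference was that of AB042069, at 5.44 on that scale (standard error 0.24, limma adjusted *P* = 7.34e-17). KT288199 differed by 3.87 (standard error 0.21, limma adjusted *P* = 3.38e-15) and AB042066 by 3.46 (standard error 0.21, limma adjusted *P* = 1.71e-14). The ATP synthase subunit, with 3.84 (standard error 0.19, limma adjusted *P* = 4.66e-16), lay between these last 2 sequences. The difference of *rbcL* was 1.00 (standard error 0.17, limma adjusted *P* = 7.62e-06).

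Most *rbcL* values lie below the pseudocount of 1 that was added before the logarithm, which compresses its fold change. With no pseudocount it was 3.05. As ratios of geometric means, leaves exceeded stems 43.4 times for AB042069, 14.6 times for KT288199, 14.3 times for the ATP synthase subunit, 11.0 times for AB042066 and 8.27 times for *rbcL*.

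Of the 5 genes 5 passed the threshold of an adjusted *P* of 0.05 as higher in leaves, against 52.0% of the 25 genes tested. The leaf and stem values of 5 of 5 did not overlap, against 40.0% of the 25 genes. An exact permutation test of each gene gave *P* = 0.002165, the smallest that 6 leaves and 6 stems allow. Their median log2 fold change was 3.84, while that over all 25 genes was 0.43. By size of the fold change they ranked 1 (AB042069), 3 (KT288199), 4 (ATP synthase subunit), 6 (AB042066) and 11 (*rbcL*). The sucrose transporter SUT1D ranked 2, and GS2, the plastid glutamine synthetase, ranked 5. Relative to the geometric mean of 20 other genes in place of actin, the median over all genes moved to 0.12, and 11 genes were higher and 8 lower in leaves, beside 13 and 6 with actin. The 5 genes remained past the threshold with both other scalings, and *rbcL* did not with a pseudocount of 100, which is far above its values.

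The lists of neighbouring pathways did not move one way between the tissues. Of 7 genes of starch synthesis in the plastid 2 were higher and 1 was lower in leaves, beside 13 and 6 of the 25 genes. The median of the 7 on the log2 scale was 0.17. With the geometric mean 1 was higher and 3 were lower, and their median was -0.15. With actin, those higher were starch synthase isoform IV (1.03) and the starch synthase IIc precursor (0.45), which extend the glucan chains. The gene agp2 (-2.88), whose name is used for a subunit of ADP-glucose pyrophosphorylase, which makes the glucose donor for starch, was lower. Of 4 genes of nitrogen assimilation, GS2 (3.53) and the nitrite reductase gene NiR (3.17) were higher in leaves. NADH-GOGAT-3B (-2.45), a glutamate synthase, and GDH (-2.38), glutamate dehydrogenase, were lower.

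The share of each sequence in the summed *rbcS* signal does not depend on actin, because the scaling of a sample cancels in it. AB042066 gave 63.8%, 67.2% and 63.2% of the sum in *Rht-B1a* stems and 58.4%, 61.4% and 57.7% in *Rht-B1b* stems. In leaves it gave 52.3%, 49.3% and 52.7% in *Rht-B1a* and 47.5%, 49.0% and 49.5% in *Rht-B1b*. It thus had the largest share of the 3 listed sequences throughout, with its lowest mean share in *Rht-B1b* leaves. Other copies of the family are not in the sheet, and reads that fit several copies make the shares uncertain.

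The share of AB042069 moved the other way. It was 3.11%, 4.75% and 3.10% in *Rht-B1a* stems and 6.81%, 4.22% and 6.69% in *Rht-B1b* stems. In leaves it was 14.0%, 13.9% and 12.5% in *Rht-B1a* and 15.2%, 16.1% and 15.3% in *Rht-B1b*. Every leaf lay above every stem, and the *Rht-B1b* leaves lay above the *Rht-B1a* leaves.

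KT288199 lay between 28.1% and 37.4% of the sum. Its share was 33.1%, 28.1% and 33.7% in *Rht-B1a* stems and 34.8%, 34.4% and 35.6% in *Rht-B1b* stems. In leaves it was 33.7%, 36.8% and 34.8% in *Rht-B1a* and 37.4%, 35.0% and 35.2% in *Rht-B1b*. Replicate 2 of the *Rht-B1a* stems, at 28.1%, was the lowest of the 12 samples.

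**Figure D2:**
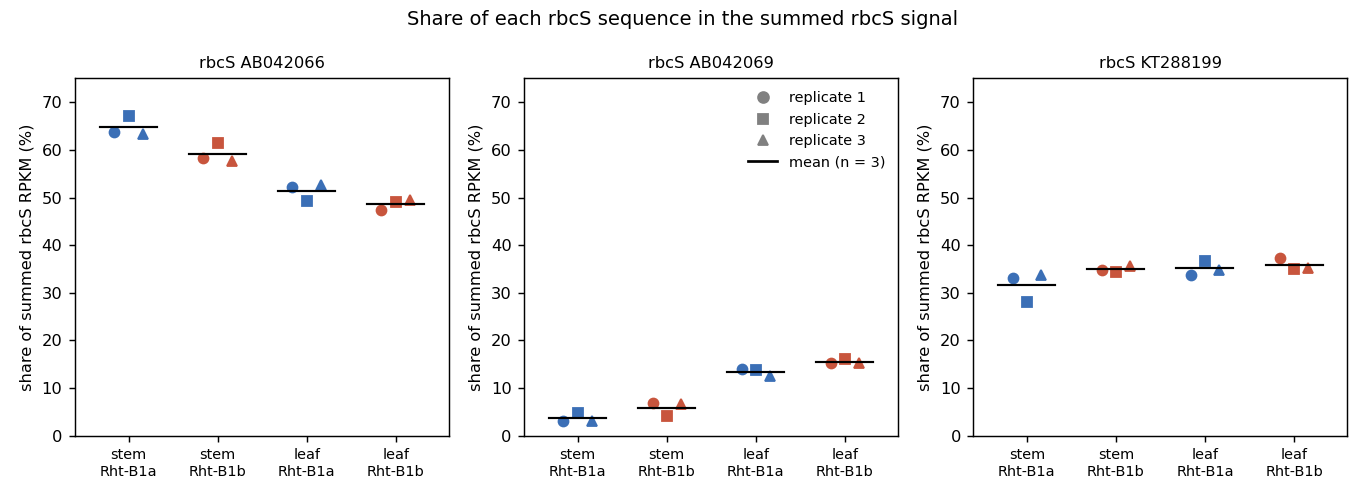
Share (%) of each rbcS sequence in the summed rbcS RPKM of a sample, with points for replicates and lines for the mean of 3. AB042066 has its highest shares in stems, AB042069 rises from 3.10% to 6.81% in stems to 12.5% to 16.1% in leaves, and KT288199 lies between 28.1% and 37.4% throughout.

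Between the tissues, the share of AB042066 was 50.04% ± 2.02 (SD, n = 6) in leaves and 61.9% ± 3.58 (SD, n = 6) in stems, with a difference of -11.9 percentage points. The share of AB042069 was 14.5% ± 1.27 (SD, n = 6) in leaves and 4.78% ± 1.66 (SD, n = 6) in stems, with a difference of 9.71 points. Neither share overlapped between leaves and stems (two-sided exact permutation test, *P* = 0.002165 for each, the smallest possible, and 0.0162 when adjusted over 15 tests of shares and ratios). KT288199 differed by 2.20 points, with 35.5% ± 1.35 (SD, n = 6) in leaves and 33.3% ± 2.71 (SD, n = 6) in stems, and did not pass (exact permutation *P* = 0.0736, adjusted 0.214). Set against AB042066, AB042069 reached 4.88% to 11.7% of its level in stems and 23.8% to 32.8% in leaves.

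Within each line alone, with 3 leaves against 3 stems, no exact test can go below 0.1. The difference of AB042066 was then -13.3 points in *Rht-B1a* and -10.5 points in *Rht-B1b*, and that of AB042069 was 9.82 points in *Rht-B1a* and 9.60 points in *Rht-B1b*.

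The line comparison asks whether the semi-dwarfing allele goes with other levels of these genes. In stems 3 of the 5 genes passed the threshold as higher in *Rht-B1b*, against 32.0% of the 25 genes tested. KT288199 lay 0.83 higher on the log2 scale (standard error 0.090, 95% interval 0.57 to 1.10, limma adjusted *P* = 0.0162). The ATP synthase subunit had 0.60 (standard error 0.12, 95% interval 0.25 to 0.95, limma adjusted *P* = 0.0308), and AB042066 had 0.55 (standard error 0.11, limma adjusted *P* = 0.0308). AB042069 had the largest estimate and the largest error and did not pass, with 1.37 (standard error 0.40, 95% interval 0.22 to 2.53, limma adjusted *P* = 0.0593).

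For *rbcL* the stem difference was 0.083 with the pseudocount (limma adjusted *P* = 0.473) and 0.60 without it (limma adjusted *P* = 0.0275). The lines did not overlap in stems for 5 of 5 genes, but they did not overlap for 60.0% of the 25 genes either. It follows that each of the 5 was higher in *Rht-B1b* in 3 of 3 pairs of stem samples, whichever way the samples are paired. The ratios within pairs were 1.79, 1.75 and 1.80 for KT288199, and they were 3.72, 1.27 and 3.68 for AB042069.

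The stem calls changed when 1 pair was left out, while the sizes of the called effects changed little. Without the pair of replicate 1, 0 of 5 genes passed in limma, with 2 of the *rbcS* sequences at an unadjusted *P* under 0.05. KT288199 then stood at 0.83 (limma adjusted *P* = 0.0581), AB042066 at 0.51 (limma adjusted *P* = 0.0988) and the ATP synthase subunit at 0.57 (limma adjusted *P* = 0.121). Without the pair of replicate 3 they stood at 0.82, 0.51 and 0.53 and did not pass, and AB042069 alone passed, at 1.12 (limma adjusted *P* = 0.0201). That fit gave each gene the same standard error (0.33), so only the size of an effect decided whether it passed. Without the pair of replicate 2 the 3 *rbcS* sequences and the ATP synthase subunit passed, with AB042069 at 1.89. With no block for the pairs 4 genes passed, AB042069 among them (limma adjusted *P* = 0.0199).

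Most genes of the sheet lay higher in *Rht-B1b* stems relative to actin, with a median log2 fold change of 0.56 over the 25 genes. Scaling to the geometric mean of 20 other genes moved that median to 0.12, and 0 of 5 genes passed in limma, with 1 at an unadjusted *P* under 0.05. Of all 25 genes 3 were then higher and 1 lower, with 9 at an unadjusted *P* under 0.05. The log2 fold changes were then 0.39 for KT288199 (95% interval 0.014 to 0.77), 0.93 for AB042069, 0.16 for the ATP synthase subunit and 0.11 for AB042066. Relative to the median of all 25 genes, AB042069 stood 0.81 higher and KT288199 0.27 higher, while the ATP synthase subunit (0.039) and AB042066 (-0.012) lay at the median.

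**Figure D3:**
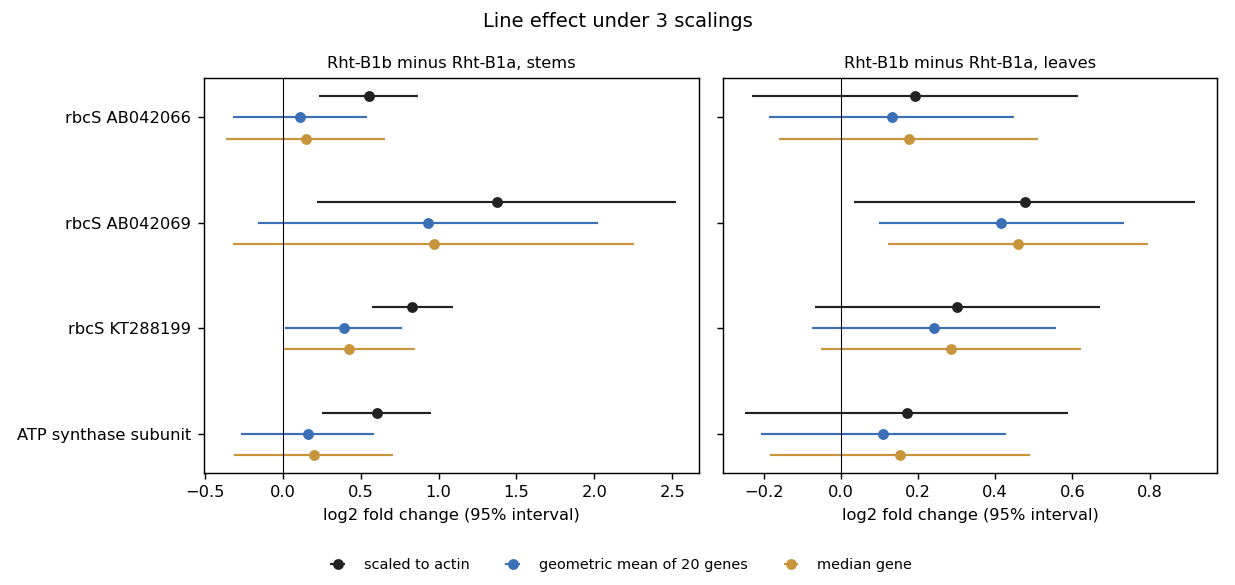
Log2 fold change (x axis, with its 95% interval from limma) of Rht-B1b over Rht-B1a in stems and in leaves for 4 genes, with values scaled to actin, to the geometric mean of 20 other genes or to their median gene. In stems the estimate for AB042066 falls from 0.55 with actin to 0.11 with the geometric mean, and that for AB042069 from 1.37 to 0.93, while the leaf estimates move little. In leaves the intervals of the other scalings rest on a standard error shared by all genes.

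In leaves 0 of the 5 genes passed the threshold in limma, with 1 at an unadjusted *P* under 0.05, against 4.0% of the 25 genes. AB042069 had the largest leaf difference of the 5, at 0.48 on the log2 scale (standard error 0.18, 95% interval 0.035 to 0.92, limma adjusted *P* = 0.280). KT288199 had 0.30 (95% interval -0.068 to 0.67), AB042066 had 0.19 (95% interval -0.23 to 0.62) and the ATP synthase subunit had 0.17 (95% interval -0.25 to 0.59). For *rbcL* it was 0.0082 (95% interval -0.34 to 0.36), and its sign turned with the other scalings.

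The lines overlapped in leaves for all 5 genes, whereas 4.0% of the 25 genes lay apart as higher in *Rht-B1b*. With leaf samples paired by neighbouring numbers, AB042069 and KT288199 were higher in *Rht-B1b* in 3 of 3 pairs, and the other genes in 2 of 3. AB042066 and the ATP synthase subunit were lower in *Rht-B1b* in the pair of replicate 1, at ratios of 0.860 and 0.858. Without that pair AB042069 passed (log2 fold change 0.70, limma adjusted *P* = 0.0421), in a fit that gave each gene the same standard error (0.21).

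Scaled to actin, the stem effect was estimated larger than the leaf effect for all 5 genes, but 0 of the 5 differences passed in limma (2 at an unadjusted *P* under 0.05), against 12% of the 25 genes. The difference, stem minus leaf, was 0.90 for AB042069 (standard error 0.40, limma adjusted *P* = 0.123) and 0.53 for KT288199 (standard error 0.23, limma adjusted *P* = 0.120). For the ATP synthase subunit it was 0.43 (standard error 0.25, limma adjusted *P* = 0.217) and for AB042066 it was 0.36 (standard error 0.25, limma adjusted *P* = 0.262). With the geometric mean in place of actin these differences were 0.51 for AB042069, 0.15 for KT288199, 0.051 for the ATP synthase subunit and -0.022 for AB042066. Without the stem pair of replicate 2, the difference of AB042069 passed, at 1.41 (limma adjusted *P* = 0.0153).

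The pathway lists were read in the same fits. Of the 7 starch synthesis genes, 3 were higher and 0 lower in *Rht-B1b* stems, beside 8 higher and 0 lower of the 25 genes (32.0%). Their median log2 fold change was 0.64. Those called higher were agp2 (1.17), the starch synthase IIc precursor (0.91) and starch synthase isoform IV (0.64). With the geometric mean 1 of the 7 was higher in stems, beside 3 of the 25 genes. With the median gene 0 of the 7 were in limma, with 2 at an unadjusted *P* under 0.05, beside 0 of the 25 genes called higher. Of the 4 nitrogen genes 0 passed in stems in limma, with 1 at an unadjusted *P* under 0.05 and a median of 0.45. With the geometric mean NADH-GOGAT-3B was lower in *Rht-B1b* stems (-0.97, limma adjusted *P* = 0.0459), and the median of the 4 was 0.0039. With the median gene NADH-GOGAT-3B did not pass (-0.93, limma adjusted *P* = 0.0533). In leaves 0 genes of either list passed in limma, with 1 starch synthesis gene and 0 nitrogen genes at an unadjusted *P* under 0.05. That starch synthesis gene, the ADP-glucose pyrophosphorylase small subunit, stood at -0.66 (standard error 0.24, limma adjusted *P* = 0.280). It was called lower in *Rht-B1b* leaves with the geometric mean (-0.72, limma adjusted *P* = 0.000408) and with the median gene (-0.68, limma adjusted *P* = 0.00229). Those fits gave each gene the same standard error (0.16 and 0.17), so the spread of this gene itself did not enter. Relative to actin its leaves overlapped, from 615 to 2299 RPKM in *Rht-B1a* and from 627 to 1347 RPKM in *Rht-B1b*. The medians in leaves were 0.046 for the starch synthesis genes and 0.19 for the nitrogen genes. The median of the 5 RuBisCO and ATP synthase genes was 0.60 in stems and 0.19 in leaves, beside 0.56 and 0.092 over the 25 genes.

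**Figure D4:**
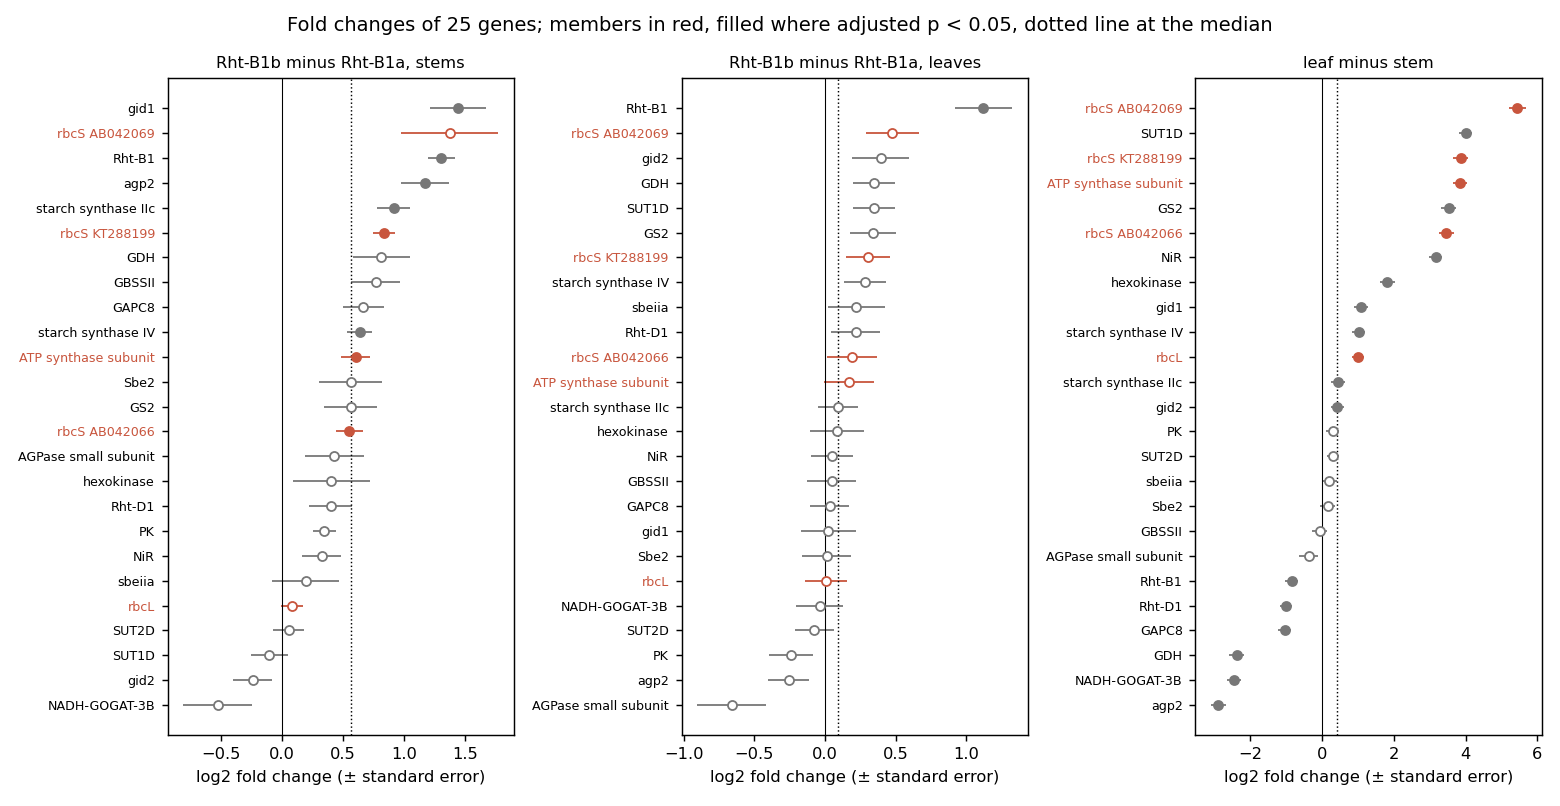
Log2 fold changes (x axis, with standard errors from limma) of 25 genes in 3 comparisons, with the RuBisCO and ATP synthase genes in red, filled points past the threshold and a dotted line at the median. In stems the 5 genes lie on both sides of the median of 0.56, and in leaf minus stem 4 of them are among the 6 largest.

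The shares were also compared between the lines. In stems the mean share of AB042066 differed by -5.61 points in *Rht-B1b*, at 59.1% ± 1.96 (SD, n = 3) against 64.8% ± 2.13 (SD, n = 3), with no overlap. The share of KT288199 was 3.36 points higher, at 35.0% ± 0.620 against 31.6% ± 3.08 (SD, n = 3 each), with no overlap. The share of AB042069 was 2.26 points higher, at 5.91% ± 1.47 against 3.65% ± 0.949 (SD, n = 3 each), with an overlap because replicate 2 went the other way.

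In leaves the share of AB042069 was 2.04 points higher in *Rht-B1b*, at 15.5% ± 0.498 against 13.5% ± 0.819 (SD, n = 3 each), and did not overlap. The share of AB042066 differed by -2.77 points, at 48.7% ± 1.08 against 51.4% ± 1.81 (SD, n = 3 each), with an overlap. KT288199 differed by 0.73 points. With 3 samples against 3, exact *P* values of the 3 shares ranged from 0.1 to 0.5 over both tissues, and 0.1 is the smallest possible.

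A test over both tissues, in which the lines were exchanged within each tissue, was chosen after the values had been seen. The study collected leaves and stems from 3 rows of each line, and no label matches leaf to stem samples. A stem pair and a leaf pair may thus share rows, while the tests treat the 6 pairs as independent. The pairs rest on neighbouring sample numbers alone. Where the lines overlap in a tissue, another pairing could change the counts of pairs and the sign-flip results. AB042066 had a mean difference of -4.19 points (exact permutation *P* = 0.01, smallest possible 0.005, adjusted 0.025 over 5 tests), lower in *Rht-B1b* in 6 of 6 pairs. AB042069 had 2.15 points (exact permutation *P* = 0.01, adjusted 0.025), higher in 5 of 6 pairs. KT288199 had 2.05 points and did not pass (exact permutation *P* = 0.075, adjusted 0.125), higher in 5 of 6 pairs. With the pairs kept as a block, an exact sign-flip test of the 6 differences within pairs gave *P* = 0.03125 for AB042066, the smallest possible, 0.0625 for AB042069 and 0.125 for KT288199, and none passed after adjustment over 5 tests (0.0781, 0.104 and 0.156). Without replicate 2 of the *Rht-B1a* stems the difference of AB042066 was -3.58 points and did not pass. That of AB042069 did not pass without replicate 3 of the *Rht-B1a* leaves (1.91 points) or replicate 2 of the *Rht-B1b* leaves (2.00 points). That of KT288199 passed without replicate 2 of the *Rht-B1a* leaves (2.46 points). The 3 shares of a sample add up to the whole, so these are not separate findings.

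The ATP synthase subunit stood at between 4.36% and 6.06% of the summed *rbcS* signal over the 12 samples. In stems it was 5.52%, 5.05% and 4.83% in *Rht-B1a* and 5.14%, 4.65% and 4.77% in *Rht-B1b*. In leaves it was 4.82%, 5.42% and 6.06% in *Rht-B1a* and 4.36%, 5.12% and 5.74% in *Rht-B1b*, and replicate 1, the leaf sample highest in *rbcS*, had the lowest proportion in each line. The log2 ratio differed by 0.066 between leaves and stems (exact permutation *P* = 0.422, adjusted 0.576). It was lower in *Rht-B1b* in 6 of 6 pairs, with mean differences of -0.080 in stems and -0.10 in leaves, a mean of -0.091 over both tissues. This did not pass with the lines exchanged within tissue (exact permutation *P* = 0.285, adjusted 0.355). Within pairs the differences were -0.10, -0.12 and -0.019 in stems and -0.14, -0.082 and -0.078 in leaves. The exact sign-flip test gave *P* = 0.03125, the smallest possible, and 0.0781 after adjustment. As for the shares, stem and leaf pairs may share rows and were treated as independent. The pairs rest on neighbouring sample numbers alone. Since the lines overlapped in both tissues, another pairing could change the count of pairs and the sign-flip result.

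The ratio of *rbcL* to the summed *rbcS* signal was lower in leaves than in stems, at 0.606 times the stem ratio. It rests on *rbcL* values near the floor, from 0.117 to 0.222 RPKM in stems and from 0.966 to 1.79 RPKM in leaves. Depth is unknown and the library kit selects polyadenylated RNA, so the ratio does not show a difference in subunit balance. The log2 difference was -0.72 (exact permutation *P* = 0.00866, adjusted 0.0433), with an overlap between the tissues. The summed *rbcS* signal was 996302, 1110420 and 979123 times *rbcL* in *Rht-B1a* stems and 1200919, 1015141 and 1059156 times in *Rht-B1b* stems. In leaves it was 2119094, 1838183 and 1048193 times in *Rht-B1a* and 1897564, 1954708 and 1872856 times in *Rht-B1b*. Replicate 3 of the *Rht-B1a* leaves fell within the range of the stems, and the other 5 leaves lay above them. The adjusted *P* rose past the threshold when replicate 1 or 3 of the *Rht-B1a* stems or replicate 2 of the *Rht-B1b* stems was left out, where the difference was -0.71, -0.70 and -0.71.

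**Figure D5:**
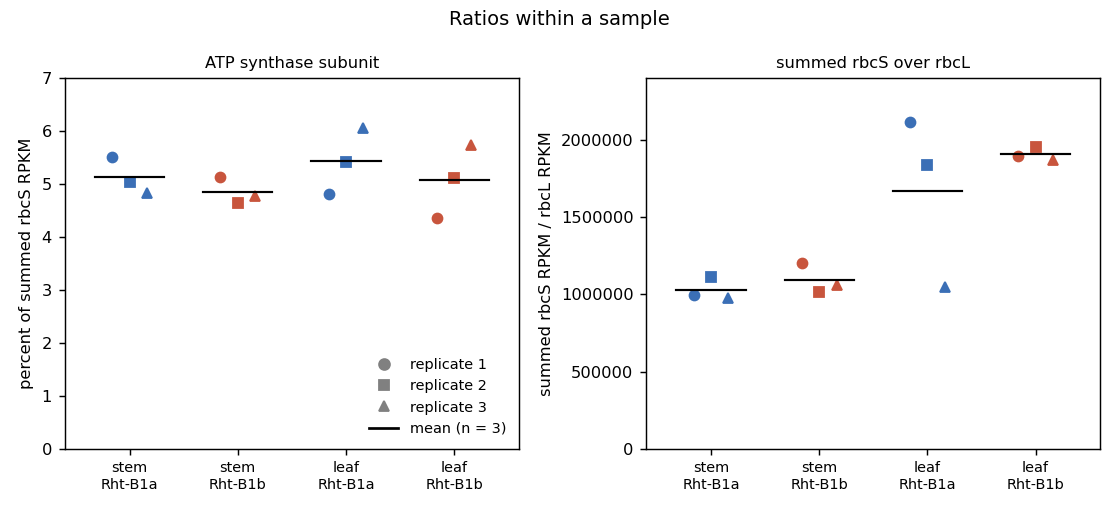
ATP synthase subunit as a percent of the summed rbcS RPKM (left) and summed rbcS RPKM over rbcL RPKM (right) in the 12 tissue samples, with points for replicates and lines for the mean of 3. The left ratio lies between 4.36% and 6.06%, and on the right 5 of 6 leaves lie above the stems. The rbcL values of the right panel are near the floor.

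The likeness of other genes was measured by the root mean square difference of log2(RPKM) over the 12 samples, with each gene centred on its own mean. For AB042066 the nearest genes were GS2 (0.154) and the ATP synthase subunit (0.220). For KT288199 they were the ATP synthase subunit (0.169) and GS2 (0.246), and for the ATP synthase subunit they were KT288199 (0.169) and AB042066 (0.220). The nearest genes to AB042069, KT288199 (0.852) and the ATP synthase subunit (0.888), were farther from it than these. For *rbcL* the nearest were NiR (0.231) and AB042066 (0.313). These distances are descriptions over samples that share the scaling to actin and the tissues.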

How the data were processed

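RNA was measured in 12 tissue samples, each with 1 column of values. GEO lists 24 samples, so that 2 of them share a column. The authors made libraries with a TruSeq kit, matched reads with ArrayStar (version not given in the sources used here) at 100% over at least 50 bp to selected wheat gene sequences, and deposited RPKM scaled to actin. Of the 27 lines of the sheet 1 is a repeat. Columns of the authors' means and *P*-values were not used. No genome build is stated, so no coordinates are given.

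Fold changes on log2(RPKM + 1) came from limma 3.58.1 (R 4.3.3), without a filter, and adjusted by Benjamini-Hochberg over 25 genes at 0.05. Line effects were fitted in each tissue with pairs as a block, because the study's methods name a paired test. Since nothing names the pairs, samples with neighbouring numbers were paired. Leaf against stem was fitted without a block, and the difference of line effects with a block per pair and tissue. The study collected both tissues from its sampled rows, and no label matches leaf to stem samples, which were treated as independent. Since the paper describes a replicate as a single plant and as a composite, *P*-values measure only the spread between these samples. Shares and ratios were compared by exact two-sided permutation tests over samples (sign flips within pairs for the block) in Python 3.11.15. The fit was tested on simulated data.

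The genes, lists and tests were chosen with earlier results of these data known. Besides the 5 genes and the lists, the 2 genes most alike to each were named by rule, and SUT1D was named for its rank. Alternatives were other pseudocounts, a filter at 500.0 RPKM, 2 other scalings (over 20 genes, actin included and the 5 genes and *Rht-B1* left out), fits with no block or both tissues together, and samples left out in turn.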

Additional observations from a re-analysis of the deposited data

How the results depend on the processing

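The number of the 5 genes called in stems, 3 with the settings reported, was 5 with no pseudocount, where 13 of all 25 genes were called beside 8 as reported. It was 0 with scaling to the geometric mean, to the median gene, and to the geometric mean with no pseudocount (added after seeing the data). It ranged from 0 to 4 without each replicate pair in turn. In leaves and for the difference between the tissues it ranged from 0 to 1, and for leaf against stem it was 4 with a pseudocount of 100 and with the filter, and 5 in each other alternative. Some of these fits gave each gene the same standard error, among them stems without replicate 3 and leaves without replicate 1. The cause of the changes in number was not tested.

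With no replicate block the count was 4 in stems, 0 in leaves and 0 for the difference between the tissues. Deviations from the line means correlated within pairs at -0.36, 0.047 and 0.29 across 25 genes in stems and at 0.53, -0.11 and 0.76 in leaves, so the numbers are not shown to pair the samples. Over both tissues the share differences of AB042066 (-4.19 points) and AB042069 (2.15 points) did not pass with the replicate block. Without each sample in turn they ranged from -4.75 to -3.58 and from 1.91 to 2.57 points, and that of KT288199 from 1.16 to 2.56 points.

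Some small effects changed sign. The leaf effect of *rbcL* was -0.028 with the geometric mean, -0.0062 with the median gene and -0.044 with the geometric mean and no pseudocount, and ranged from -0.064 to 0.10 without each replicate. The difference between the tissues ranged from -0.020 to 0.15 for *rbcL* in the same way, and for AB042066 it was -0.022 with the geometric mean, with or without a pseudocount, and -0.029 with the median gene. In leaves, leaving out each sample gave -0.032 to 1.57 points for the share of KT288199, -0.19 to 0.0029 for the log2 ratio of the ATP synthase subunit and -0.46 to 0.049 for that of *rbcL*. For *rbcL* between leaves and stems the range was -0.87 to -0.67, past the threshold except without the 3 stems named above.

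Within 1 line the share differences between tissues, -13.3 and -10.5 points for AB042066 and 9.82 and 9.60 for AB042069, cannot pass with 3 samples against 3. Depth is unknown, so no counting error is given for *rbcL* or any other gene.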
